A study of Mus musculus with 6 samples.

Results

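The genes described here encode the enzymes that build triglyceride from glycerol phosphate. They were taken from the deposited table by symbol, and all 10 were found, each in 1 row, among the 54532 genes of the table: Gpd1, Gpam, Gpat3, Gpat4, Agpat2, Agpat3, Lpin1, Lpin2, Dgat1 and Dgat2. RNA came from wild-type 3T3 cells, a mouse fibroblast line that can be turned into fat cells, described by the labels as adipocytes. The 3 control samples received DMSO, the solvent, and the 3 treated samples 200 µM baicalin, a flavone glucuronide of Scutellaria roots. Neither the subline, nor the way the cells were made into fat cells, nor the length of treatment is given in the labels used here. The labels do not state that replicates were separate cultures. The p-values therefore measure only how far these samples lie apart, and that spread may be technical.

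Fat cells store fatty acids as triglyceride in lipid droplets. In the glycerol phosphate route, dihydroxyacetone phosphate from glycolysis is reduced to glycerol phosphate, fatty acyl groups are added in consecutive steps to give lysophosphatidic and phosphatidic acid, the phosphate is removed by lipins, and the resulting diacylglycerol receives its last acyl group. Each step is served by several isoenzymes from separate genes, which differ in their place in the cell and in the tissues that rely on them. Phosphatidic acid and diacylglycerol are also the starting points of phospholipid synthesis.

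Total counts were between 16730594 and 18326874 per library, and a gene without a read could be at most at 0.179 CPM (counts scaled to a common library total) in the shallowest library, counting error only. Of 10 fat cell markers 6 had enough reads to test, and all 6 were lower in baicalin. The summed level of the 10 markers was 1803 to 1977 CPM in the DMSO libraries and 801 to 816 CPM in the baicalin libraries. Most of it was Lpl and Fabp4, with means of 1443 and 430 CPM under DMSO. Plin1, Cidec and Adipoq had means of only 18.9, 5.28 and 1.66 CPM under DMSO. The defining markers Lep and Slc2a4 had 2 and 6 reads in all libraries together. Of the other untested markers, Cfd had 6, 4 and 5 reads with DMSO and none with baicalin, and Retn went the other way, with 2, 0 and 2 reads against 13, 7 and 8. Summed markers of macrophages stood at 2.17 to 2.52 CPM in DMSO and 3.05 to 5.01 CPM in baicalin, with 1 of the 2 tested genes called higher, and those of endothelial cells at 0.65 to 1.14 and 2.33 to 3.16 CPM, with Vwf, the 1 tested gene, called higher. Markers of skeletal muscle summed to 6.93 to 8.44 and 15.5 to 16.7 CPM, all of it reads of Des, which was called higher, since Myod1, Myog, Myf5 and Ckm had no read. Of 7 markers of preadipocytes or fibroblasts 3 were higher and 4 lower, and their summed level was 7961 to 8511 CPM in DMSO and 6764 to 7024 CPM in baicalin.

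Baicalin did not move the genes of the route in 1 direction. Of the 10 genes 5 were higher (Gpat3, Gpat4, Lpin2, Dgat1 and Dgat2), 4 were lower (Gpd1, Agpat2, Agpat3 and Lpin1) and 1 (Gpam) was not called. A call means an adjusted p under 0.05 (Benjamini-Hochberg, over all genes) in the quasi-likelihood test of edgeR. Over all 13728 tested genes 67.7% were called, 33.6% higher and 34.1% lower, so that the share of called genes in the route is to be read against a transcriptome in which most genes were called. A called change of at least 1.5-fold was found for 6 of the 10 genes and for 30.0% of all tested genes, and one of at least 2-fold for 2 of the 10, Gpd1 and Dgat2, and for 15.0% of all. The median log2 fold change of the 10 genes was 0.07 and their median absolute log2 fold change 0.62, beside 0.00 and 0.38 over all genes. The levels of the 2 groups did not overlap for any of the 10 genes, as for 70.2% of all genes.

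**Figure D1:**
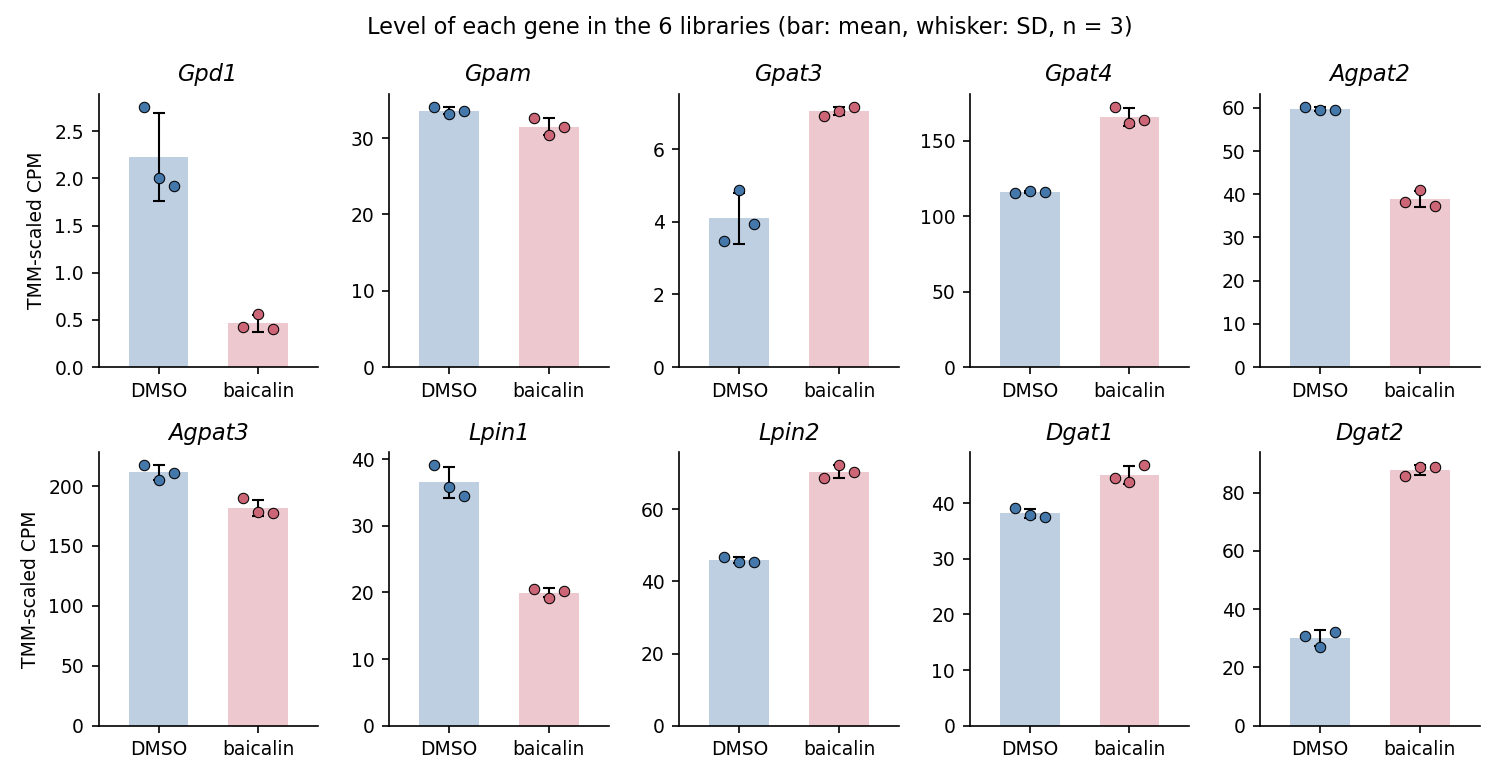
Level of the 10 genes in each library, in CPM scaled by TMM factors. Bars give the mean of 3 libraries, whiskers the SD and points the libraries, and each vertical axis starts at 0. Dgat2 goes from 30.1 to 87.7 CPM and Gpd1 from 2.23 to 0.46 CPM, and for Gpam the groups lie close together.

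The entry of the route had few reads of Gpd1. Gpd1, the cytosolic glycerol phosphate dehydrogenase that makes glycerol phosphate from the glycolytic intermediate dihydroxyacetone phosphate (ENSMUSG00000023019, chromosome 15, 99717515 to 99725005; positions here and below are GENCODE M21 gene bounds on mm10), had 51, 35 and 35 reads under DMSO and 7, 10 and 7 under baicalin. Every baicalin library lay far below every DMSO library, and DMSO replicate 1 was the highest. The level fell from 2.23 ± 0.47 to 0.46 ± 0.09 CPM (SD, n = 3 each), a log2 fold change of -2.24 (SE 0.36, 95% interval -2.98 to -1.54, adjusted p = 2.31e-07). Exons of the opposite-strand gene Gm16537 overlap those of Gpd1 over 384 bp, and since the strand setting of the counting is not given their reads cannot be told apart. Gm16537 had 8 reads in DMSO and 11 in baicalin. FPKM are fragments per kilobase of gene length, as deposited by the authors, with a scaling between libraries that is not total counts alone. Gpd1l, a paralog of Gpd1, had 6.95 ± 0.37 FPKM in DMSO and 6.35 ± 0.41 FPKM with baicalin. That difference was not called (edgeR adjusted p = 0.0688). Gpd1 was at 0.76 ± 0.16 and 0.16 ± 0.03 FPKM. Per length, Gpd1l was thus the more abundant of both in every library.

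Of 7 genes listed under glycerol phosphate supply 5 were tested, and 4 of these were higher and none lower. Over all tested genes 33.6% were higher and 34.1% lower. Tpi1, the triosephosphate isomerase that keeps dihydroxyacetone phosphate in balance with glyceraldehyde phosphate, rose from 569 ± 14.9 to 1578 ± 55.6 CPM (2.77-fold). Aldoa, the aldolase upstream of it, rose 1.95-fold, Pck2, the mitochondrial phosphoenolpyruvate carboxykinase, 2.03-fold, and the pyruvate carboxylase gene Pcx 1.16-fold. After trends with exon length and GC content were taken out, Pcx was no longer called (adjusted p = 0.0564). The mitochondrial glycerol phosphate dehydrogenase gene Gpd2, which consumes glycerol phosphate, was not called (log2 fold change 0.03, adjusted p = 0.664). Pck1, the cytosolic carboxykinase of glyceroneogenesis in mature fat cells, had 1 read in all libraries together, and the glycerol channel gene Aqp7 had 10. Glycerol kinase, which makes glycerol phosphate from free glycerol, was not called (Gk, log2 fold change 0.19, adjusted p = 0.167). Gk5, listed beside Gk, fell 1.67-fold, from 11.4 ± 0.40 to 6.85 ± 0.48 CPM (log2 fold change -0.74, edgeR adjusted p = 6.95e-07).

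In the step from glycerol phosphate to lysophosphatidic acid, the endoplasmic reticulum enzymes rose and the mitochondrial enzyme was not called. Gpat4, an acyltransferase of the endoplasmic reticulum that can move onto growing lipid droplets (ENSMUSG00000031545, chromosome 8, 23171265 to 23208346), was at 116, 117 and 116 CPM with DMSO and 173, 162 and 164 CPM with baicalin. The DMSO libraries lay within 2 CPM of each other and all baicalin libraries above them, with a log2 fold change of 0.51 (SE 0.04, adjusted p = 1.42e-15). Gpat3, its close relative, which is strongly induced when fat cells form (ENSMUSG00000029314, chromosome 5, 100845713 to 100899102), was at 3.47, 4.86 and 3.95 CPM with DMSO and 6.92, 7.06 and 7.16 CPM with baicalin. The DMSO libraries were the more spread out, and all lay below the baicalin libraries, with a log2 fold change of 0.79 (SE 0.16, adjusted p = 2.52e-05). Exons of Gpat3 overlap those of the opposite-strand gene 4930458D05Rik over 1052 bp, which had 33 reads with DMSO and 73 with baicalin, beside 221 and 363 for Gpat3, and those of the same-strand gene Gm42987 over 259 bp, which had 3 reads in all.

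Gpam encodes the glycerol phosphate acyltransferase of the outer mitochondrial membrane and is a known target of SREBP1 (ENSMUSG00000024978, chromosome 19, 55067268 to 55127238). Its level was 34.1, 33.1 and 33.5 CPM with DMSO and 32.6, 30.4 and 31.5 CPM with baicalin. The baicalin libraries all lay just below the DMSO libraries, but the difference was not called (log2 fold change -0.09, SE 0.07, 95% interval -0.23 to 0.05, adjusted p = 0.232). With library size as the only scaling, which moves the median over all genes by -0.13 on the log2 scale, Gpam was called lower (-0.22, adjusted p = 0.00481). Gpat2, the remaining isoenzyme, had 1 read in all 6 libraries.

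Among the acyltransferases that make phosphatidic acid, Agpat2 and Agpat3 fell while Agpat1, Agpat4 and Agpat5 rose. Agpat2, the isoenzyme whose loss causes congenital lipodystrophy (ENSMUSG00000026922, chromosome 2, 26593057 to 26604417), was at 60.3, 59.4 and 59.6 CPM with DMSO and 38.3, 41.1 and 37.4 CPM with baicalin. The groups lay well apart, and the log2 fold change was -0.62 (SE 0.06, adjusted p = 9.97e-14), a 1.54-fold fall. Exons of Agpat2 overlap those of the opposite-strand gene Egfl7 over 64 bp, and Egfl7 had 294 reads in all beside 5244 of Agpat2. Agpat3, a broadly expressed acyltransferase of the endoplasmic reticulum and Golgi (ENSMUSG00000001211, chromosome 10, 78269178 to 78352489), was at 218, 205 and 211 CPM with DMSO and 189.8, 178 and 178 CPM with baicalin. Every baicalin library was below every DMSO library, and the fall was small (log2 fold change -0.22, SE 0.04, adjusted p = 6.14e-06). Under library-size scaling it was -0.34. It shares 16 bp of exon with Gm40709 on the other strand, which had 7 reads in all.

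Of the isoenzymes of this step outside the 10 genes, Agpat1 had a log2 fold change of 0.26 (adjusted p = 3.47e-06), Agpat4 of 0.44 (1.05e-09) and Agpat5 of 0.52 (2.38e-10), all higher in baicalin. Agpat1 was not called once length and GC trends were taken out (log2 fold change 0.0098, adjusted p = 0.86). Lclat1, a related lysocardiolipin acyltransferase, was not called (log2 fold change -0.03, adjusted p = 0.714).

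The lipins, phosphatases that turn phosphatidic acid into diacylglycerol and also act in the nucleus as coregulators of transcription, did not move together: Lpin1 fell, and Lpin2 and Lpin3 rose. Lpin1, the main lipin of fat and muscle, without which mice are lipodystrophic (ENSMUSG00000020593, chromosome 12, 16535669 to 16610966), was at 39.1, 35.9 and 34.5 CPM with DMSO and 20.5, 19.2 and 20.2 CPM with baicalin. All baicalin libraries lay below all DMSO libraries, with DMSO replicate 1 the highest, and the level fell 1.83-fold (log2 fold change -0.87, SE 0.08, adjusted p = 8.0e-15). Lpin2, prominent in liver and macrophages (ENSMUSG00000024052, chromosome 17, 71182560 to 71249817), was at 46.8, 45.4 and 45.5 CPM with DMSO and 68.6, 72.3 and 70.2 CPM with baicalin. The groups lay far apart relative to their spread, and the level rose 1.53-fold (log2 fold change 0.62, SE 0.05, adjusted p = 5.59e-15). Lpin3, the least abundant lipin per length, rose as well, from 1.05 ± 0.04 to 1.79 ± 0.11 FPKM (log2 fold change 0.76, adjusted p = 5.2e-05).

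Within each library the ratio of Lpin1 to Lpin2 reads does not depend on how libraries are scaled. The log2 ratio was -0.26, -0.34 and -0.40 under DMSO and -1.74, -1.92 and -1.80 under baicalin. The groups were far apart, and the ratio was 2.80-fold lower in baicalin (exact permutation test, two-sided, p = 0.1, the smallest that 3 against 3 allows). Of 5 such pairs compared, 4 reached this p, and with Benjamini-Hochberg adjustment over the 5 pairs the exact permutation p was 0.125 for these and 0.2 for the fifth. Per length, Lpin1 and Lpin2 were at 3.81 ± 0.25 and 3.78 ± 0.07 FPKM in DMSO, where their libraries overlapped, and at 2.10 ± 0.09 and 5.85 ± 0.12 FPKM in baicalin, where they did not.

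The lipid phosphate phosphatases of the Plpp family can also remove the phosphate of phosphatidic acid, but act mainly at the cell surface. Plpp3 was at 435, 431 and 438 CPM with DMSO and 216, 198 and 206 CPM with baicalin. It fell 2.10-fold (log2 fold change -1.07, adjusted p = 3.08e-30), while Plpp2 rose 1.80-fold (adjusted p = 5.86e-14) and Plpp1 was not called (log2 fold change -0.01, adjusted p = 0.846).

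Promoter sequences of the RefSeq table (build GRCm38.p6, the assembly of mm10) were matched by symbol for 6 of the 10 genes, Gpam, Gpat3, Agpat2, Agpat3, Lpin1 and Lpin2. The members without an entry are Gpd1, Gpat4, Dgat1 and Dgat2. The 250 bases before a start are printed for 4 genes whose window at the start shown overlaps no annotated exon: the lipin pair that moved in opposite directions, Agpat2, which fell with Lpin1, and Gpam, which was not called. Windows are written 5′ to 3′ on the gene's strand, Lpin1 from chr12:16610967-16611216 (minus strand), Lpin2 from chr17:71183282-71183531 (plus strand, 1 of 3 listed starts), Agpat2 from chr2:26604418-26604667 (minus strand) and Gpam from chr19:55127239-55127488 (minus strand, 1 of 2 listed starts). Capitals mark matches on either strand to 6 short motifs.
Lpin1: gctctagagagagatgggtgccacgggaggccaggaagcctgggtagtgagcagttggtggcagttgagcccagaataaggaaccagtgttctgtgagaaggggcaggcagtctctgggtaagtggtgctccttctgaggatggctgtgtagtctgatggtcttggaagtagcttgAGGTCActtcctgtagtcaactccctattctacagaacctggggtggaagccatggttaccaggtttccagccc
Lpin2: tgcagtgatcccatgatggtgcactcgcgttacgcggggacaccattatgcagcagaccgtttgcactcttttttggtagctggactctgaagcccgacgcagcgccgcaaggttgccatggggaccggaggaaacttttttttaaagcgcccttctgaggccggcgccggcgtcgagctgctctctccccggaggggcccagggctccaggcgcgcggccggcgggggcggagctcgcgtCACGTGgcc
Agpat2: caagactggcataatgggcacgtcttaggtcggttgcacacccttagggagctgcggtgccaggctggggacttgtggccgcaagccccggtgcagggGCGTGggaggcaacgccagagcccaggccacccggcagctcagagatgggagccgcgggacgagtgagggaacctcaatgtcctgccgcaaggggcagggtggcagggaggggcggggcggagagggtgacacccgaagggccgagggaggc
Gpam: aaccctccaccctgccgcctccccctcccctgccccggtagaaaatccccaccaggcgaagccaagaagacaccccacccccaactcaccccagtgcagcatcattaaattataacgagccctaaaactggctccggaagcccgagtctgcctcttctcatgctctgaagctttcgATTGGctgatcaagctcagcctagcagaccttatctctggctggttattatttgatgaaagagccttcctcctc

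The motifs searched were the E-box CACGTG, the CCAAT box, GCGTG (the core of the xenobiotic response element), TGACNNNGC (the core of the antioxidant response element), TCACNCCAC (a sterol response element) and the nuclear receptor half-site AGGTCA. The 4 printed windows held 1 match each. The windows of Gpat3 and Agpat3, which overlap annotated exons and are not printed, held no match to any of these motifs. Which motif a gene shows depends on the start: another start of Gpam had AGGTCA and GCGTG, and the other starts of Lpin2 had GCGTG and, at the last, 3 matches to CCAAT. Lpin1 had AGGTCA starting 74 bases before the start, a motif found in 14.0% of all 32851 windows of this length. Lpin2 had CACGTG starting 9 bases before it (6.02% of windows), Agpat2 had GCGTG starting 152 bases before it (28.2%), and Gpam had the reverse complement of CCAAT starting 74 bases before it (33.8%). No printed window held TGACNNNGC (10.2% of windows) or TCACNCCAC (1.05%). These are letter matches only, and counts per gene do not show which start was used in these cells.

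At the last step, both diacylglycerol acyltransferases were higher, and Dgat2 rose more than any other of the 10 genes. Dgat2, which is linked to triglyceride made from newly synthesised fatty acids and works at the lipid droplet surface (ENSMUSG00000030747, chromosome 7, 99153658 to 99182719), was at 30.8, 27.1 and 32.3 CPM with DMSO and 85.6, 88.8 and 88.7 CPM with baicalin. All baicalin libraries stood far above all DMSO libraries, of which replicate 2 was the lowest, with a log2 fold change of 1.54 (SE 0.06, 95% interval 1.43 to 1.66, adjusted p = 7.4e-30). Dgat1, an unrelated protein that re-esterifies fatty acids in the endoplasmic reticulum (ENSMUSG00000022555, chromosome 15, 76502015 to 76511953), was at 39.1, 37.8 and 37.5 CPM with DMSO and 44.4, 43.7 and 46.8 CPM with baicalin. The groups did not overlap, and the difference was small (log2 fold change 0.24, SE 0.06, adjusted p = 0.000673). The call of Dgat1 depends on the scaling: it was lost with library size alone (0.11, adjusted p = 0.111). Taking out length and GC trends gave a log2 fold change of -0.014 (adjusted p = 0.857).

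The log2 ratio of Dgat2 to Dgat1 reads was -0.35, -0.48 and -0.22 in DMSO and 0.95, 1.02 and 0.92 in baicalin. The sign differed between the groups in every library, and the ratio was 2.48-fold higher in baicalin (exact permutation test, two-sided, p = 0.1). Per length, Dgat1 was above Dgat2 in DMSO, at 12.6 ± 0.31 against 9.82 ± 0.87 FPKM, and below it in baicalin, at 15.0 ± 0.55 against 29.0 ± 0.44 FPKM.

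**Figure D2:**
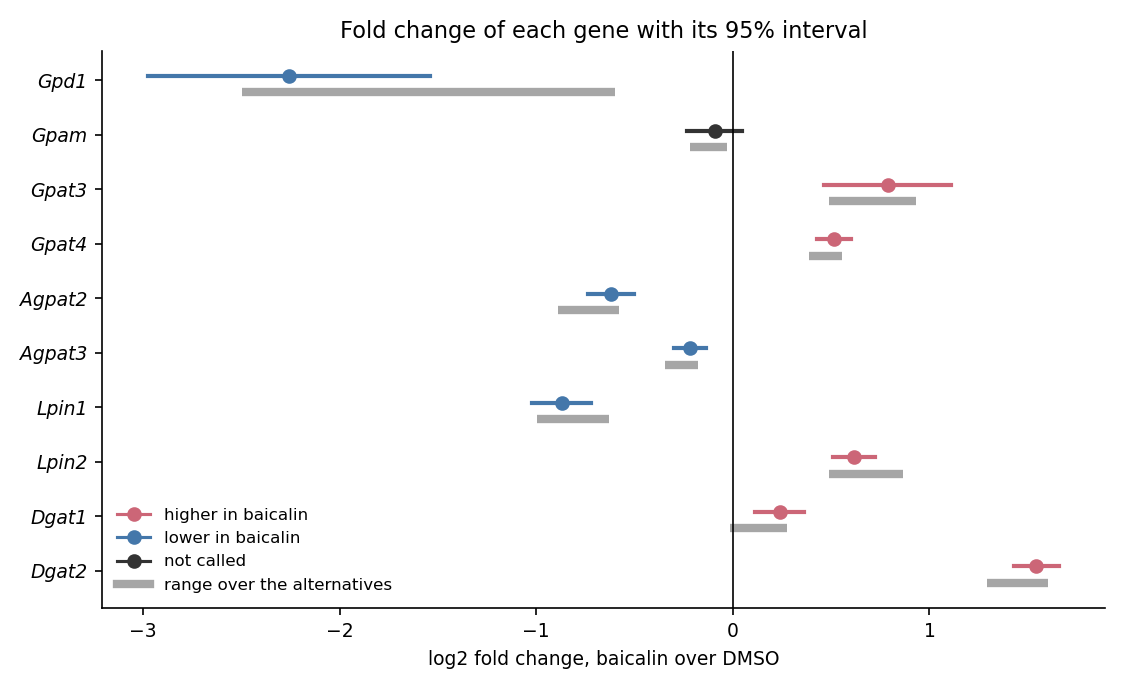
Log2 fold change of each gene, baicalin over DMSO, with its 95% interval from the edgeR fit (coloured) and the range over the alternative analyses (grey bar). The intervals of Lpin1 and Lpin2 lie on opposite sides of 0, that of Gpam includes 0, and the grey bar of Dgat1 reaches -0.014.

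The remaining 3 pairs were Gpam to Gpat4, Agpat2 to Agpat3 and Gpat3 to Gpat4. The log2 ratio of Gpam to Gpat4 reads was -1.79 ± 0.03 in DMSO and -2.40 ± 0.02 in baicalin, and that of Agpat2 to Agpat3 reads -1.82 ± 0.03 and -2.23 ± 0.10 (SD, n = 3 each, exact permutation p = 0.1 for both). In both pairs the groups did not overlap, and the first gene of the pair lost ground. The log2 ratio of Gpat3 to Gpat4 reads was -4.84 ± 0.24 in DMSO and -4.56 ± 0.07 in baicalin, and its libraries overlapped (exact permutation p = 0.2), so that no difference between their rises was detectable.

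**Figure D3:**
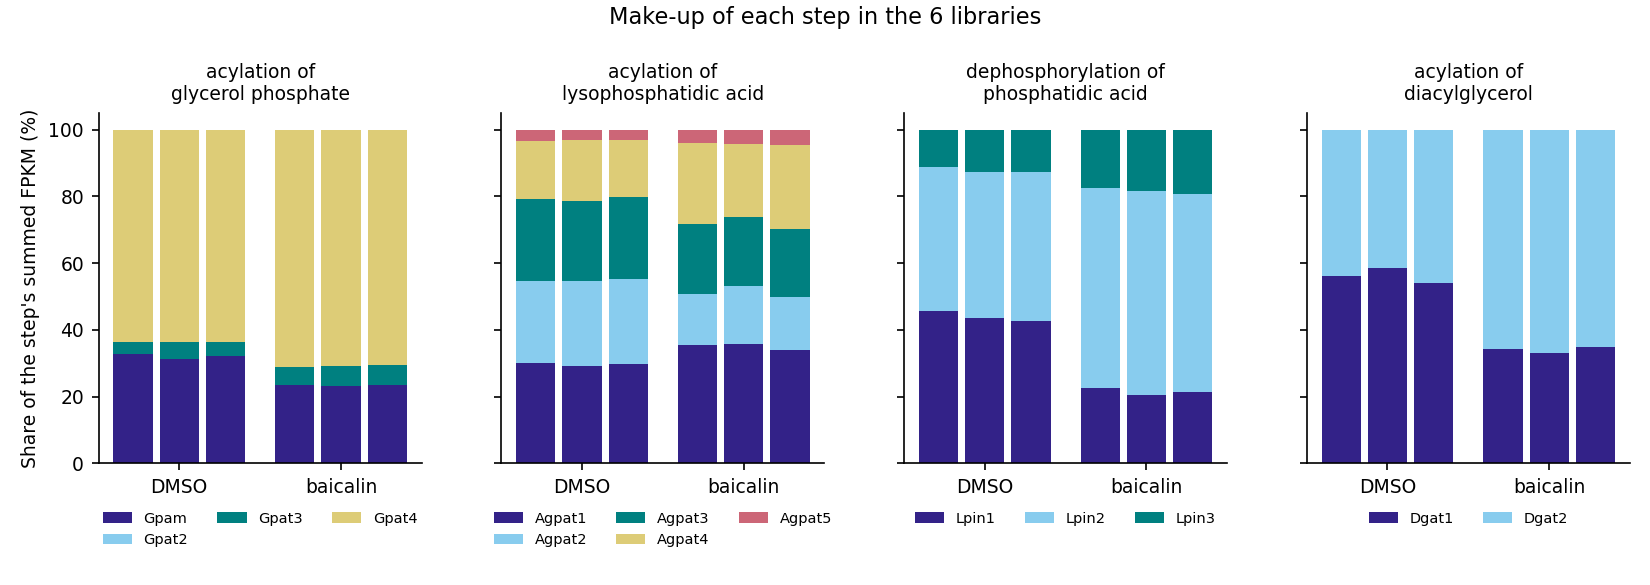
Share of each isoenzyme in the summed FPKM of its step, in percent. The bars are the 3 DMSO and 3 baicalin libraries in order of replicate number. Lpin1 goes from 44.0% to 21.6% of the lipin step and Dgat2 from 43.8% to 65.9% of the last step.

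Because FPKM values are per length, isoenzymes of a step can be set beside each other and summed. The summed FPKM of Dgat1 and Dgat2 was 22.4 ± 0.94 in DMSO and 43.9 ± 0.79 in baicalin, 1.96-fold higher, and that of the 4 glycerol phosphate acyltransferases 27.5 ± 0.17 and 35.7 ± 1.35, 1.30-fold higher (SD, n = 3 each, exact permutation p = 0.1 for both). The 3 lipins summed to 8.63 ± 0.29 and 9.75 ± 0.14 FPKM, 1.13-fold higher (exact permutation p = 0.1). The 5 Agpat genes summed to 112 ± 2.87 and 115 ± 4.23 FPKM, and their libraries overlapped (exact permutation p = 0.5). The last step thus showed the greatest relative increase of the 4, and the lipin step had the lowest sum in both groups.

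The make-up of each step also differed between the groups. Lpin1 held 45.6%, 43.7% and 42.8% of the lipin FPKM under DMSO and 22.6%, 20.5% and 21.5% under baicalin, while Lpin2 went from 43.8% ± 0.72 to 60.1% ± 1.07 and Lpin3 from 12.1% ± 0.79 to 18.4% ± 0.90. Dgat2 held 43.8%, 41.5% and 46.0% of its step in DMSO and 65.7%, 66.8% and 65.2% in baicalin. Agpat2 went from 25.2% ± 0.39 to 16.2% ± 1.06 of the Agpat step and Agpat3 from 24.3% ± 0.24 to 20.7% ± 0.12, while Agpat1 went from 29.7% ± 0.43 to 35.0% ± 1.02 and Agpat4 from 17.7% ± 0.52 to 23.7% ± 1.61 (SD, n = 3 each). None of these shares overlapped between the groups, and the exact permutation p was 0.1 for each, the smallest possible.

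Gpat4 held 63.7% ± 0.08 of the glycerol phosphate acyltransferase FPKM in DMSO and 70.8% ± 0.35 in baicalin, Gpam 32.1% ± 0.66 and 23.4% ± 0.22, and Gpat3 4.27% ± 0.71 and 5.74% ± 0.26 (SD, n = 3 each, exact permutation p = 0.1). The deposited FPKM of Gpam corresponds to a gene length of 3832 bp, whereas GENCODE M21 gives it 6664 bp of exons. For the other isoenzymes of the 4 steps the implied and annotated lengths were equal to the base pair. With the annotated lengths Gpat4 held 73.7% ± 0.30 and 78.6% ± 0.34 and Gpam 21.4% ± 0.51 and 15.0% ± 0.16.

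**Figure D4:**
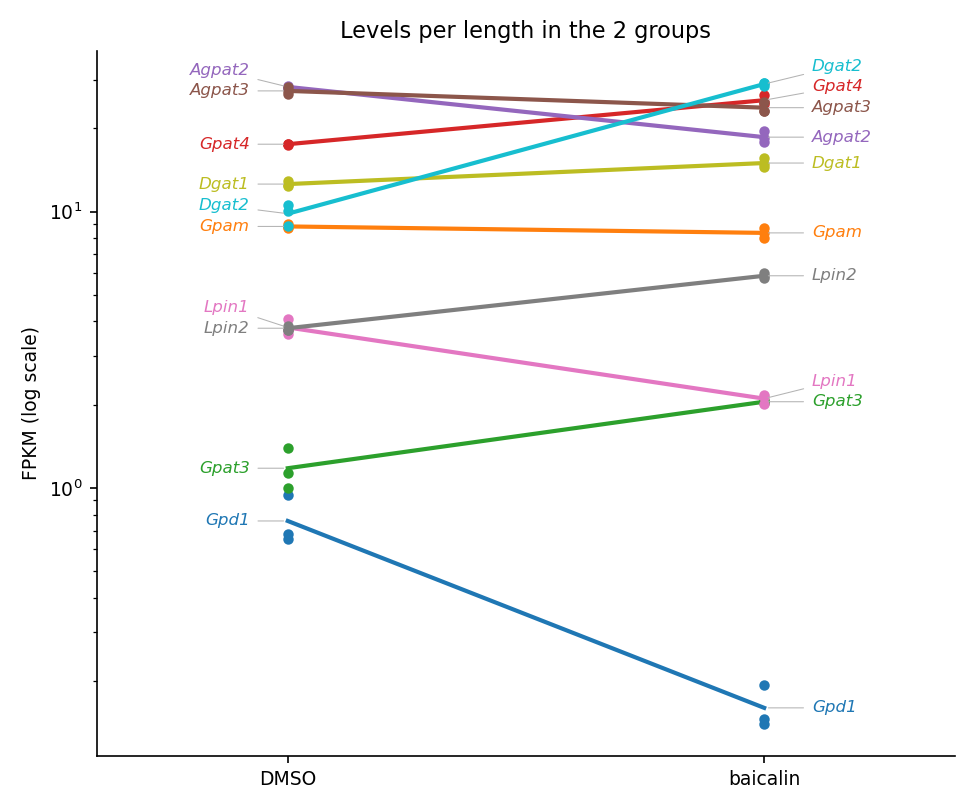
Deposited FPKM of the 10 genes in DMSO and baicalin on a log axis. Points are libraries and lines join the group means. The line of Dgat2 crosses those of Dgat1, Agpat2, Agpat3 and Gpat4, and the lines of Lpin1 and Lpin2 start together and separate.

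In DMSO the order of levels per length was Agpat2 (28.3 FPKM), Agpat3 (27.3), Gpat4 (17.5), Dgat1 (12.6), Dgat2 (9.82), Gpam (8.83), Lpin1 (3.81), Lpin2 (3.78), Gpat3 (1.18) and Gpd1 (0.76). The libraries of neighbours overlapped for Agpat2 and Agpat3, for Dgat2 and Gpam, and for Lpin1 and Lpin2. In baicalin the order was Dgat2 (29.0 FPKM), Gpat4 (25.3), Agpat3 (23.8), Agpat2 (18.6), Dgat1 (15.0), Gpam (8.37), Lpin2 (5.85), Lpin1 (2.10), Gpat3 (2.05) and Gpd1 (0.16), with overlap for Gpat4 and Agpat3 and for Lpin1 and Gpat3. Dgat2 moved from the fifth to the first place and Agpat2 from the first to the fourth, while Gpat3 and Gpd1 kept their places. The place of Gpam depends on its length: rescaled to the annotated exons, a choice made after the data were seen, it was at 5.08 ± 0.09 FPKM in DMSO and 4.81 ± 0.20 in baicalin. It then did not overlap Dgat2 in DMSO and went from the sixth place to the seventh, below Lpin2, where with the deposited values it was sixth in both groups.

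Gpd1, Agpat2 and Lpin1 were the genes of the route with called falls of at least 1.5-fold. They fell in the same libraries in which the 6 tested fat cell markers were lower. The summed levels of the markers given above are mostly Lpl and Fabp4. Dgat2, Gpat3 and Lpin2, those with called rises of at least 1.5-fold, rose in these libraries 2.92-fold, 1.73-fold and 1.53-fold. In bulk RNA, fewer cells of a type and less RNA per cell cannot be told apart. The part of the fat cell markers in these falls and rises was not tested.

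Genes that feed acyl groups into the route were higher or not called, apart from Acbd3. Of 9 listed genes 8 were tested, with 5 higher and 1 lower, beside 33.6% higher and 34.1% lower over all tested genes. Acsl4, an acyl-CoA synthetase with a preference for polyunsaturated fatty acids, rose 1.69-fold from 149 ± 6.59 to 253 ± 7.49 CPM, and Acsl3, which sits on nascent lipid droplets, rose 1.68-fold. The fatty acid transport genes Slc27a4 and Slc27a1 rose 1.55-fold and 1.16-fold, and Acsl1, the main synthetase of mature fat cells, 1.26-fold. Slc27a1 was not called with library size alone (adjusted p = 0.182). The fall of Acbd3, a Golgi protein with an acyl-CoA binding domain, named here because it was the single fall, was small (log2 fold change -0.14, adjusted p = 0.0172). That call was lost without DMSO replicate 3, without any of the baicalin replicates, without a low-count filter and in all 3 fits of FPKM values.

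**Figure D5:**
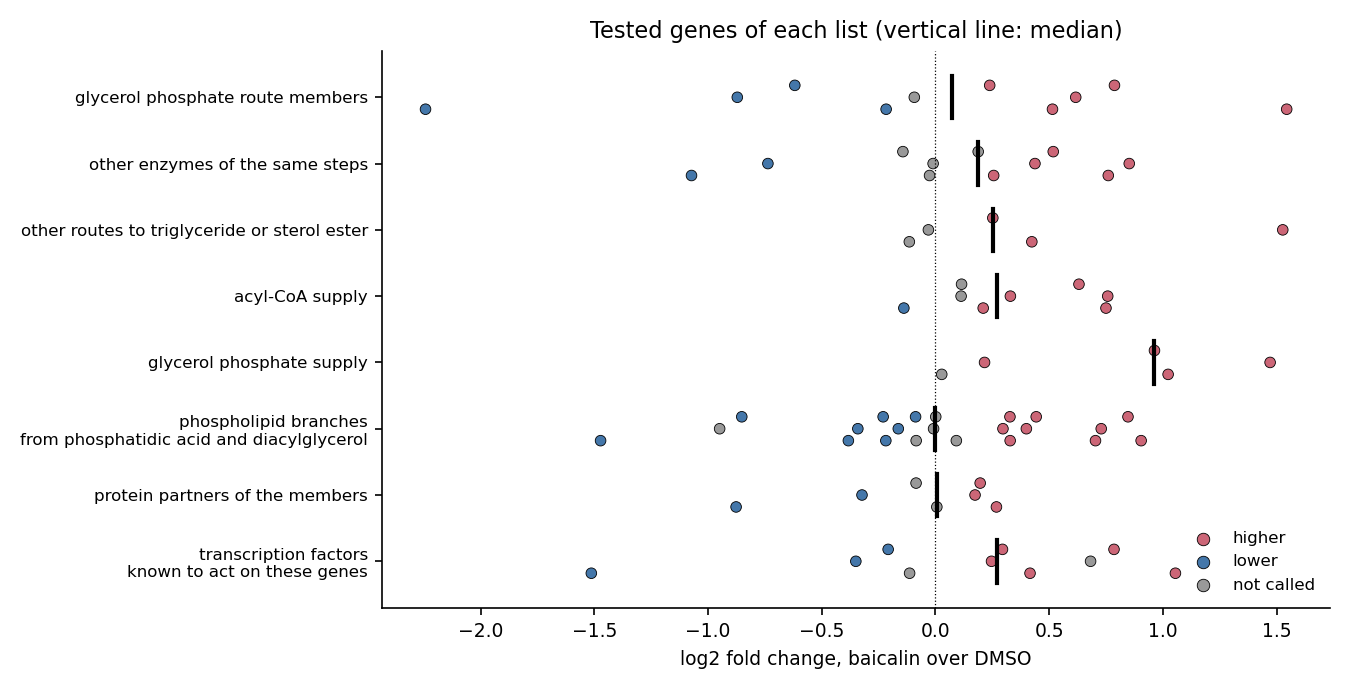
Log2 fold change, baicalin over DMSO, of every tested gene of the route and of 7 related lists. Points are genes coloured by call and vertical lines are list medians, which run from -0.00 for the phospholipid branches to 0.96 for glycerol phosphate supply.

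Of 24 listed genes of the branches from phosphatidic acid and diacylglycerol to phospholipids 22 were tested, with 9 higher, 8 lower and a median log2 fold change of -0.00, beside 33.6% higher and 34.1% lower over all tested genes. Etnk1, the ethanolamine kinase that opens the route to phosphatidylethanolamine, was at 416 ± 18.6 CPM under DMSO and 149.8 ± 8.53 CPM under baicalin (SD, n = 3 each), a 2.77-fold fall and the greatest in the list. Dgkh, a diacylglycerol kinase that converts diacylglycerol back to phosphatidic acid, fell 1.80-fold. Pgs1 and Cdipt, which draw on CDP-diacylglycerol for cardiolipin and for phosphatidylinositol, rose 1.66-fold and 1.63-fold, and Pcyt1b, an isoform of the rate-limiting enzyme of phosphatidylcholine synthesis, rose 1.80-fold from 3.88 ± 0.32 to 6.98 ± 0.27 CPM. The number of falls in this list was 5 without DMSO replicate 2 or baicalin replicate 1, on both filtered FPKM scales and once length and GC trends were taken out, and 3 on the unfiltered log2(FPKM + 1) scale.

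Of 7 tested genes listed as protein partners 3 were higher and 2 lower, with log2 fold changes between -0.88 and 0.27. Whether each listed protein acts on an enzyme of the route was not tested. The shares over all tested genes were 33.6% higher and 34.1% lower. Cnep1r1, a subunit of the phosphatase that activates lipins, fell by 0.32 on the log2 scale, while its catalytic subunit Ctdnep1 was higher by 0.27, which became -0.0098 once length and GC trends were taken out. Tmx1, a thioredoxin-like membrane protein, was higher by 0.17. Its call was lost with library size alone (edgeR adjusted p = 0.408), under which 1 of the 7 listed genes was higher and 4 were lower. Bscl2, which encodes the lipid droplet protein seipin, a binding partner of AGPAT2 and lipin 1, had 90, 84 and 79 reads under DMSO and 29, 52 and 50 under baicalin (log2 fold change -0.88, adjusted p = 0.000192). It is below the level set for naming and was added after its values were seen.

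Of 12 transcription factors and coactivators known to act on these genes 10 were tested, with 5 higher and 3 lower. Over all tested genes 33.6% were higher and 34.1% lower. Cebpb, an early factor of fat cell formation, rose from 286 ± 18.9 to 595 ± 17.2 CPM (log2 fold change 1.05), Nr1h3, which encodes LXR alpha, by 0.78 and its relative Nr1h2 by 0.42. Ppargc1a, a coactivator that also binds lipin 1, fell by 1.51 on the log2 scale, and Pparg, the master regulator of fat cells, fell by 0.35. Mlxipl, which encodes the carbohydrate-responsive factor ChREBP, had no read in any library, which at 3 counts of the shallowest library allows at most 0.179 CPM. Srebf1, which lies outside the rule for named genes and is given because its targets include Gpam, was at 67.3 ± 3.92 CPM under DMSO and 79.9 ± 4.36 CPM under baicalin (log2 fold change 0.25, adjusted p = 4.33e-05).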

How the data were processed

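Poly-A RNA from 3 µg of RNA per sample was made into NEBNext Ultra libraries, per the labels' protocols. The authors deposited read counts per gene, made with featureCounts 1.5.0-p3 per the series design text, on build mm10 per the submitters' processing notes, and FPKM values computed from the counts and gene lengths. No source used here gives the aligner, the annotation or the strand setting. The deposited FPKM values do not follow reads over total counts. Dgat1 had 722 reads and 12.9 FPKM in DMSO replicate 1, and 738 reads and 14.9 FPKM in baicalin replicate 1. Total counts of these libraries were 17711950 and 17598666. Rows that name no gene were 0 in number, and 0 per-sample columns were left unmatched.

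Counts of all genes were tested in edgeR 4.0.16 (R 4.3.3, filterByExpr, TMM, robust quasi-likelihood fit, treatment as the only term), with Benjamini-Hochberg adjustment over the 13728 tested genes and calls at an adjusted p under 0.05. CPM values are scaled by TMM factors between 0.945 and 1.05. Intervals cover 95% and use the fit without a prior count. Replicate libraries were further apart than sampling noise (chi-square per degree of freedom from 2.84 to 4.37). Ratios and shares were tested with exact permutation tests over the 6 libraries. Positions are those of GENCODE M21, on the assembly of mm10. The test was checked on simulated counts in which few genes changed, whereas 67.7% of the tested genes were called here. That check does not cover scaling between groups in which most genes change.

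The genes and lists were chosen with earlier results of these data known. Named are the 10 genes, the other isoenzymes of the 4 steps with at least 10 reads, and up to 5 called genes of each other list with a mean of at least 5 CPM, by the size of the change. A gene of the partner list that this rule names is not reported here. Alternatives were DESeq2 1.42.0, limma-voom, and limma-trend (limma 3.58.1) on log2 FPKM with 1 or 0.1 added, for genes of at least 1 FPKM in 3 libraries and, with 1 added, also unfiltered, scaling by RLE factors or by library size alone, testing without a low-count filter or with one of 1 CPM throughout a group, a block for the replicate number, subtraction of lowess trends (span 0.3) for exon length and GC content, and leaving out each library.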

Additional observations from a re-analysis of the deposited data

How the results depend on the processing

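Of the 10 genes, all but Gpam and Dgat1 kept their direction and call under every alternative that could test them. Gpd1 was below the FPKM filter, and on the unfiltered log2(FPKM + 1) scale its log2 fold change was -0.60, while that of Gpat3 was 0.49. The count of 5 higher and 4 lower genes became 4 and 5 with library size alone, 4 and 4 after length and GC trends were taken out, and 5 and 3 under the FPKM filter, and was 5 and 4 without any 1 library. Taking out those trends reversed Dgat1 (-0.014) and Ctdnep1 (-0.0098); the cause was not tested. Of the 68 tested genes in the 7 other lists 34 were higher and 16 lower, beside 33.6% and 34.1% of all tested genes. The falls in these lists were 25 with library size alone and 10 on the unfiltered log2(FPKM + 1) scale. The rise in the Gpat4 share, 7.16 percentage points, was 4.94 with counts per annotated exon length, where Gpam has the length of 6664 bp, and 7.44 with 1 FPKM added. The change in the Lpin1 share, -22.5 points, was -16.9 with 1 FPKM added. The ratios of reads moved by less than their spread under every alternative run.

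With the replicate number as a block the count was again 5 higher and 4 lower, and 34 and 16 in the other lists. For same-numbered libraries nothing but the number is known to be shared. Their deviations correlated at 0.035, 0.037 and -0.00239, of which the positive values were the highest of all pairs of a DMSO and a baicalin library. Baicalin replicate 3 correlated best with DMSO replicate 2 (0.026). Whether same-numbered libraries shared a culture or a batch was not tested. Depth limits Gpd1 (145 reads in all) and Gpat3 (584) most, and 3 against 3 libraries limit exact tests to p = 0.1.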

Other observations

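Of 9 listed genes of other routes to triglyceride or sterol ester 5 were tested, with 3 higher and none lower. Among all tested genes 33.6% were higher and 34.1% lower. Mogat1 and Mogat2, the monoacylglycerol acyltransferases of the gut and liver route, had 3 and 10 reads in all libraries together, and Awat1 and Dgat2l6, relatives of Dgat2, had none. Soat1, which esterifies cholesterol, was measured at 87.1 ± 0.35 CPM with DMSO and 117 ± 3.84 CPM with baicalin (SD, n = 3 each), 1.34-fold higher (edgeR, adjusted p = 9.41e-12). Its relative Soat2 was higher as well, from 0.48 ± 0.08 to 1.39 ± 0.31 CPM (2.88-fold, edgeR, adjusted p = 0.000466). Gnpat, the peroxisomal enzyme that acylates dihydroxyacetone phosphate, was at 53.4 ± 1.08 and 52.3 ± 4.35 CPM and was not called (edgeR, adjusted p = 0.65). Tmem68, an acyltransferase that can make triglyceride without the DGAT enzymes, was at 10.4 ± 0.47 and 12.4 ± 1.39 CPM, and its call (log2 fold change 0.25, edgeR adjusted p = 0.0454) was fragile. It was lost without DMSO replicate 1, 2 or 3 and without baicalin replicate 2 or 3 (edgeR, adjusted p from 0.0588 to 0.21). It was also lost with DESeq2 (0.109), library size alone (0.338), the stricter count filter (0.0557) and unfiltered log2(FPKM + 1) values (0.103).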
